A study of Mus musculus with 15 samples.

Results

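Integrin chains and the basement membrane proteins they bind were followed across sorted liver endothelial cells. The set held 38 genes: 25 integrin chains (17 alpha and 8 beta), 10 laminin chains, the 2 nidogens and Hspg2, which encodes perlecan. The genes were chosen by name, with earlier results of these data known. A gene counted as measured where the accession of a probe mapped to its symbol. That was so for 36 of the 38 genes, with 50 probes, out of 21173 named genes and 55681 probes on the array. Itgae and Itga10 matched no probe and have no value here.

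RNA from endothelial cells (EC) of adult mouse liver had been hybridised to 15 Agilent arrays in a single colour; the 5 sorted populations had 3 arrays each. EC-SP and EC-MP came from mice 8 weeks old, and the labels give SP and MP only as abbreviations. The other populations were sorted on the surface proteins CD157, encoded by Bst1, and CD200: CD157+CD200+, CD157-CD200+ and CD157-CD200- cells, for which the labels give no age. The study set EC-SP against EC-MP, and the CD157 and CD200 subsets against each other, in search of a marker of endothelial stem cells. The labels name no strain, genotype or treatment for any group. They call the 3 samples of a group independent but do not say whether each came from 1 animal or a pool, so the p-values below measure only the spread between these samples.

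An integrin is a receptor of 1 alpha and 1 beta chain that ties the cytoskeleton to the matrix outside the cell. Chains alpha 3, alpha 6 and alpha 7 with beta 1, and alpha 6 with beta 4, bind laminins. Chains alpha 5, alpha 8 and alpha V bind the RGD sequence of proteins such as fibronectin, alpha 1 and alpha 2 bind collagens, and the beta 2 and beta 7 chains are best known from leukocytes. Laminins are trimers of an alpha, a beta and a gamma chain that polymerise into the sheet of the basement membrane, which nidogens and perlecan link to the collagen IV network. The sinusoids of the liver are known for an incomplete basement membrane, whereas its veins and arteries rest on a complete layer.

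Each value below is the log2 of a probe's Cy3 signal minus the log2 of the 75th percentile of the signal on the same array, so that 0 is the level of that percentile. Probes differ in how brightly they hybridise, so a value is compared only with values of the same probe. Precision is limited by there being 3 arrays to a group, and ± is the standard deviation beside a group mean and the standard error beside a difference. Between 57.3% and 69.4% of an array's spots passed the image software's test of being well above background. All 10 endothelial markers checked, among them Pecam1 and Cdh5, were well above background on all 15 arrays. Bst1 was at 2.45, 2.48 and 2.77 in CD157+CD200+ cells and at -2.65, -2.14 and -2.45 in CD157-CD200+ cells (replicates 1 to 3, the order used for every set of 3 values below). No array of CD157-CD200- cells had Cd200 well above background.

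Markers of vessel type and of other cells moved with the same contrasts. All 10 sinusoidal markers (such as Stab2 and Lyve1) were lower in EC-SP than in EC-MP and lower in CD157+CD200+ and CD157-CD200+ than in CD157-CD200- cells. The sum of their linear signals, each relative to the 75th percentile, was 20.0 to 22.1 in EC-SP, 294.2 to 515.3 in EC-MP, 60.0 to 71.5 in CD157+CD200+, 112.9 to 128.7 in CD157-CD200+ and 841.3 to 1114 in CD157-CD200- arrays. Of 10 large-vessel markers (such as Vwf and Cd34), 6 were higher in EC-SP than in EC-MP and 9 were higher in CD157+CD200+ than in CD157-CD200- cells; 8 of 9 tested arterial markers (such as Sox17 and Efnb2) were higher in EC-SP and 5 of 9 in CD157+CD200+ cells. Of 10 cholangiocyte markers (such as Krt19 and Epcam), 8 were higher in EC-SP than in EC-MP, with summed signals of 18.3 to 21.9 against 3.67 to 5.07. None of the 10 was called by limma between any pair of subsets (7 of 10 had an unadjusted p under 0.05 in CD157+CD200+ against CD157-CD200+ cells, 2 in CD157+CD200+ against CD157-CD200- and 0 in CD157-CD200+ against CD157-CD200- cells). Their sums were 8.54 to 11.9 in CD157+CD200+ arrays, above the 3.73 to 5.999 of CD157-CD200+ and the 5.12 to 8.17 of CD157-CD200- arrays. Of 9 tested hepatocyte markers, 8 were lower in CD157+CD200+ than in CD157-CD200- cells (sums of 11.2 to 14.0 against 26.5 to 44.4), as were 6 of 11 Kupffer cell and macrophage markers (28.1 to 31.5 against 40.9 to 54.9). Genes of the stellate cell and fibroblast list moved both ways. Rgs5 and Pdgfrb, also known from mural cells, were higher in CD157+CD200+ than in CD157-CD200- cells by 3.84 ± 0.27 and 4.79 ± 0.75 log2 units. Rgs5 was higher in EC-SP than in EC-MP by 3.75 ± 0.33, while Lrat was lower in both contrasts (-3.05 and -3.52). Lrat was well above background on no EC-SP array and was tested in that sort through EC-MP alone, which favoured a difference. The size of its difference between EC-SP and EC-MP is therefore not measured. Summed signals of 6 smooth muscle markers were 4.68 to 6.94 in EC-SP and 5.14 to 5.63 in EC-MP arrays. They were 7.91 to 8.39 in CD157+CD200+, 9.82 to 14.7 in CD157-CD200+ and 4.865 to 7.62 in CD157-CD200- arrays. The part of these markers in the results below was not tested. In RNA from many sorted cells, fewer cells of a type and less RNA per cell cannot be told apart.

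Genes were tested with limma on all features of a comparison and called where the p adjusted by Benjamini-Hochberg was under 0.05; in what follows "higher", "lower", "rose" and "fell" are used of called differences. Of the 36 genes with a probe, 27 entered the test of EC-SP against EC-MP and 29 the tests of the subsets; a gene entered where some group had its probe well above background on 3 of 3 arrays. In EC-SP against EC-MP, 15 of the 27 were called, 11 higher and 4 lower, where 16.5% of all features were called (9.1% up and 7.43% down). In CD157+CD200+ against CD157-CD200- cells, 14 of 29 were called, 9 higher and 5 lower, against 15.2% of all features (8.08% up and 7.11% down). In CD157-CD200+ against CD157-CD200- cells, 14 of 29 were called, also 9 higher and 5 lower, against 11.8% of all features (6.3% up and 5.53% down). In CD157+CD200+ against CD157-CD200+ cells, 3 of 29 were called, 2 higher and 1 lower, against 1.04% of all features (0.801% up and 0.244% down). Any difference among the subsets was called for 17 of 29 by limma's moderated F test, against 13.9% of all features. A gene that entered through its high group alone was favoured to differ, so its call is a description. That holds for Itga2 and Itgb6 in EC-SP, Itga8 in EC-MP and Itga7 in CD157-CD200+ cells. Itga4 and Lamc3 entered the subset tests through CD157+CD200+ cells alone and were not called in the counts above. Among genes well above background on every array of a fit, 12 of 24, 14 of 25, 13 of 25 and 3 of 25 were called in the same order, against 16.4%, 13.9%, 10.8% and 0.825% of such features. The median log2 difference of the tested genes was 0.46, 0.57, 0.39 and 0.17 in the 4 comparisons, and that of all features lay between -0.01 and 0.02.

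The replicate number of the labels coincided with the slide and scan of the array. With that number as a block, 17, 20, 17 and 6 genes were called, against 21.9%, 29.2%, 22.3% and 3.06% of all features, and the 3 calls between the CD200+ subsets became 6.

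**Figure D1:**
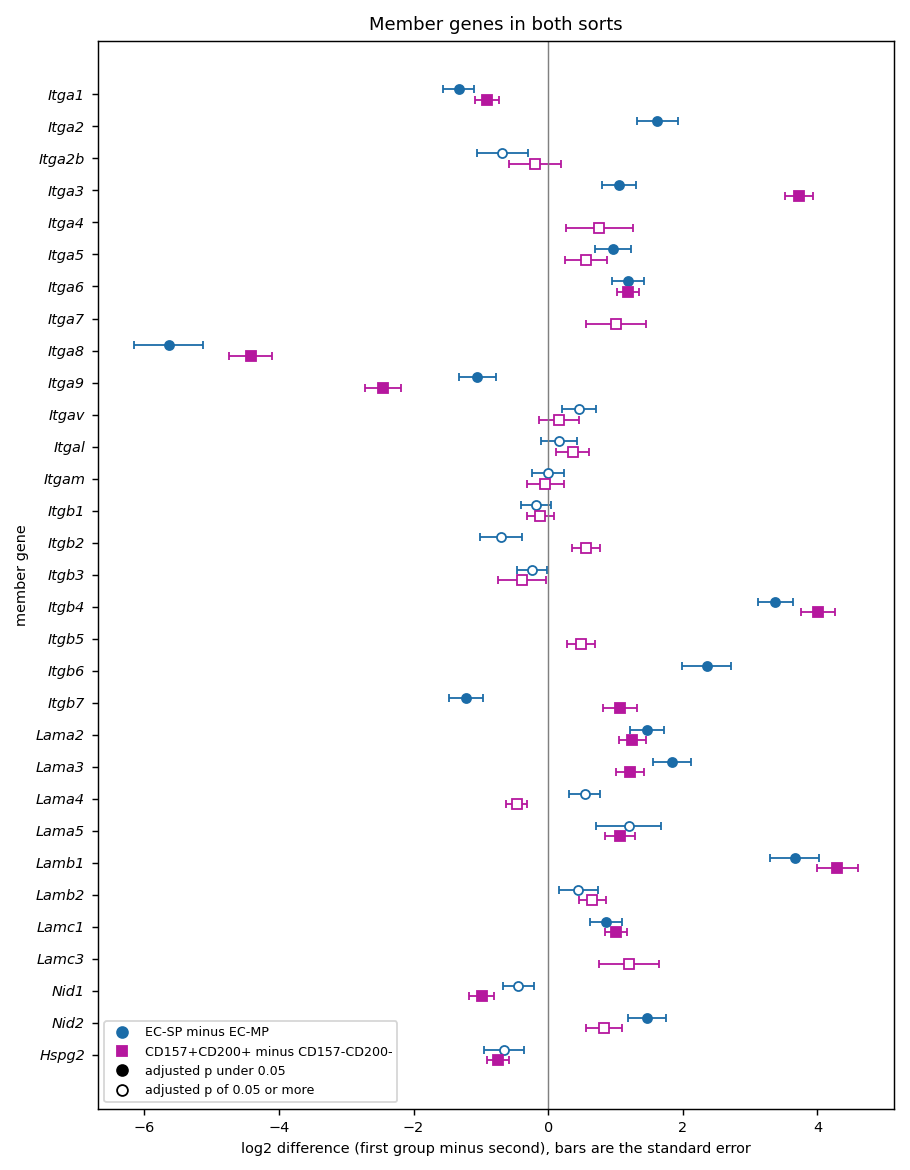
Log2 difference (x axis) of 31 tested integrin, laminin, nidogen and perlecan genes (y axis) in EC-SP minus EC-MP (circles) and CD157+CD200+ minus CD157-CD200- (squares), with bars for the standard error and filled symbols for an adjusted p under 0.05. Itgb4, Lamb1 and Itga3 lie on the right in both contrasts and Itga8 and Itga9 on the left, while the 2 symbols of Itgb7 lie on opposite sides of 0.

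Of the 5 laminin-binding integrin chains, 4 were tested in EC-SP against EC-MP, all but Itga7, and 5 in the subsets. Itga3, Itga6 and Itgb4 were higher in EC-SP than in EC-MP and higher in CD157+CD200+ than in CD157-CD200- cells. Of all features, 9.1% and 8.08% were higher in these contrasts. Itgb1 was called in no comparison, and Itga7 was called in 1.

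Itgb4, which encodes the beta 4 chain that pairs only with alpha 6 and anchors epithelial cells at hemidesmosomes, showed the largest difference among the tested beta chains in each of the 4 comparisons. Its values were 1.60, 1.66 and 2.33 on the EC-SP arrays and -1.33, -1.73 and -1.48 on the EC-MP arrays. In the subsets it was at 2.41, 2.81 and 2.24 in CD157+CD200+, 0.54, 0.48 and 0.54 in CD157-CD200+ and -1.85, -1.003 and -1.71 in CD157-CD200- cells. None of these groups overlapped within its sort, and the middle subset lay between the others. Itgb4 was 10.4-fold higher in EC-SP than in EC-MP (log2 difference 3.38 ± 0.26, adjusted p = 1.0e-04; 2.93, 3.39 and 3.81 within slides 1 to 3). With normexp background correction, an alternative whose offset draws dim signals together, the difference was 2.57 log2 units. Itgb4 was 16.1-fold higher in CD157+CD200+ than in CD157-CD200- cells (4.01 ± 0.25, adjusted p = 4.7e-06; 2.94 after normexp correction). The step from CD157-CD200- to CD157-CD200+ was 2.04 ± 0.25 (adjusted p = 4.8e-04; 1.23 after normexp correction) and the step from there to CD157+CD200+ was 1.97 ± 0.25 (adjusted p = 0.0065). Beside the Itgb4 difference of 4.01 between the outer subsets, the median difference of the 10 cholangiocyte markers was 0.64. Beside its CD157 step of 1.97 that median was 0.92, with 7 of the 10 at an unadjusted p under 0.05, and beside its CD200 step of 2.04 it was -0.25. Beside the Itgb4 difference of 3.38 between EC-SP and EC-MP it was 2.10; biliary epithelium also carries this chain, and its part in the Itgb4 values was not tested.

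Itga6, whose alpha 6 chain is the partner of beta 4 and also pairs with beta 1, showed smaller differences in the same direction. It was at 4.21, 4.17 and 4.52 in EC-SP and 2.92, 3.00 and 3.44 in EC-MP. Its subset values were 4.18, 4.02 and 4.36 in CD157+CD200+, 3.60, 3.36 and 3.53 in CD157-CD200+ and 3.00, 2.96 and 3.03 in CD157-CD200- cells, again without overlap. The difference was 1.18 ± 0.24 between EC-SP and EC-MP (adjusted p = 0.01) and 1.19 ± 0.17 between CD157+CD200+ and CD157-CD200- cells (adjusted p = 8.5e-04), 2.26-fold and 2.28-fold. The single steps were 0.50 ± 0.17 for CD200 (adjusted p = 0.092, 0.016 with the replicate block) and 0.69 ± 0.17 for CD157 (adjusted p = 0.12, 0.023 with the block).

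Itga3, encoding the alpha 3 chain of the laminin receptor alpha 3 beta 1, was high in both CD200+ subsets and low in CD157-CD200- cells. It was at 0.69, 0.73 and 0.87 in CD157+CD200+ and 0.57, 0.54 and 0.86 in CD157-CD200+ cells, ranges that overlap, and at -3.11, -2.57 and -3.19 in CD157-CD200- cells. In the other sort it was at 0.12, 0.021 and -0.062 in EC-SP and -1.07, -1.39 and -0.62 in EC-MP. It was 13.2-fold higher in CD157+CD200+ than in CD157-CD200- cells (3.72 ± 0.21, adjusted p = 2.3e-06) and 12.3-fold higher in CD157-CD200+ than in CD157-CD200- cells (3.62 ± 0.21, adjusted p = 3.4e-06). After normexp correction these differences were 1.96 and 1.897, both called. The difference between the CD200+ subsets was 0.10 ± 0.21 (adjusted p = 1). In EC-SP it was 2.08-fold higher (1.06 ± 0.25, adjusted p = 0.021), and this call was lost, at adjusted p of 0.061 to 0.073 and differences of 0.87 to 1.06, when replicate 1 or replicate 2 of either group was left out, and also without a filter on dim probes (adjusted p = 0.071).

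The promoter of Itga3 is shown because this gene had the largest difference between CD157-CD200+ and CD157-CD200- cells among the integrin chains. The RefSeq promoter table (build GRCm38.p6) held 28 promoters of 25 of the 38 genes, and the 250 bases before the start site were searched on both strands for the GATA factor motif AGATAA, for the second form of that motif, TGATAA, for the ETS factor motif CCGGAA, for the KLF factor motif CACCC and for the AP-1 motif TGANTCA; the GATA forms differ from each other in the first letter, and GATA, ETS and KLF factors are known regulators of endothelial genes. The sequence is the strand of the gene, 5′ to 3′, chr11:95076715-95076964 on the minus strand, with the only match, to the ETS motif, in capitals; the table's second Itga3 start site had no match.
Itga3: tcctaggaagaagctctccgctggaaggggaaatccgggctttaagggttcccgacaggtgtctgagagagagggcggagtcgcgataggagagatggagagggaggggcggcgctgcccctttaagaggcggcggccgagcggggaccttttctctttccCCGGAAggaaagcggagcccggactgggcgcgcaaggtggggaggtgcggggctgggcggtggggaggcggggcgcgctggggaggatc

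All promoters in that table numbered 32851, of which 12.0% held the ETS motif, 52.0% the KLF motif, 9.99% the first GATA form, 7.94% the second and 6.75% the AP-1 motif. Of the 28 promoters of these genes, 2 held the ETS motif, 18 the KLF motif, 1 the first GATA form, 0 the second and 1 the AP-1 motif. A match describes letters in this window and is not a measured binding site.

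Itgb1, encoding the beta 1 chain shared by most matrix-binding integrins, was called in no comparison. It was at 3.43, 3.18 and 3.11 in EC-SP, 3.43, 3.62 and 3.21 in EC-MP, 3.52, 3.55 and 3.84 in CD157+CD200+, 3.61, 3.68 and 4.06 in CD157-CD200+ and 3.70, 3.58 and 3.97 in CD157-CD200- cells, with overlapping ranges in every comparison. Its differences lay between -0.18 (EC-SP minus EC-MP) and 0.033 (CD157-CD200+ minus CD157-CD200-), with standard errors of 0.20 to 0.22 and adjusted p of 0.66 to 0.97. A second Itgb1 probe was also called in no comparison.

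Itga7, encoding the alpha 7 chain best known from muscle, was dim and was well above background on all 3 arrays of CD157-CD200+ cells alone. Its values there were -3.57, -2.98 and -2.52, against -3.76, -4.34 and -4.32 in CD157+CD200+ and -5.72, -4.06 and -5.68 in CD157-CD200- cells. It entered the tests of the subsets through that group alone, so its call is a description. On the processed signals its level was 4.38-fold higher in CD157-CD200+ than in CD157-CD200- cells (fitted difference 2.13 ± 0.45). No CD157-CD200- array had it well above background, so the size of that difference is not measured. The call was lost without CD157-CD200- replicate 1 (1.85, adjusted p = 0.052), and with normexp background correction the difference shrank to 0.26 and was not called.

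**Figure D2:**
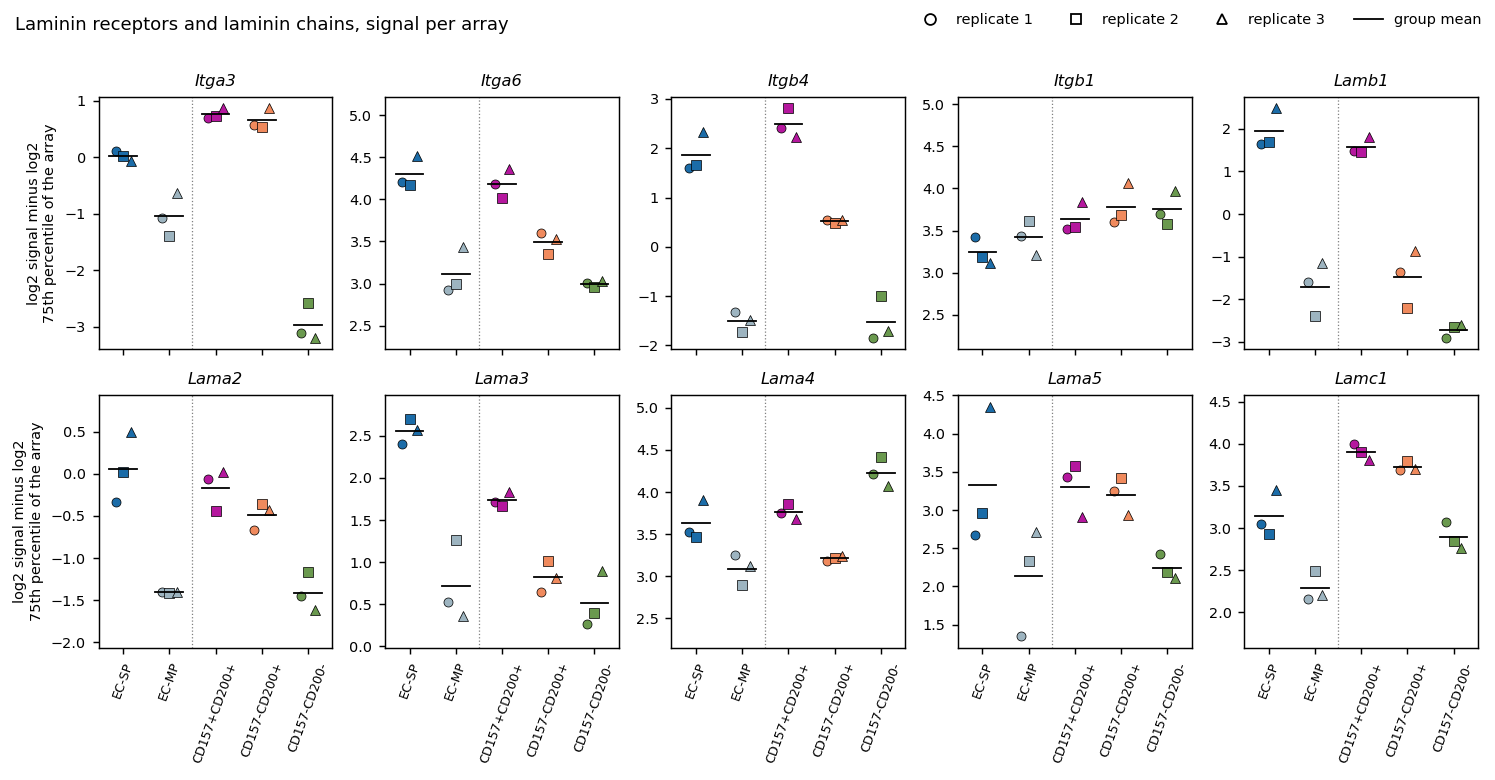
Relative log2 signal (y axis, each panel with its own range) of laminin receptor chains and laminin chains on each of the 15 arrays, by group (x axis), with 1 marker shape per replicate number and a line at the group mean; the dotted line divides the 2 sorts. Itgb4 falls step by step from CD157+CD200+ to CD157-CD200- cells, Itga3 overlaps between the CD200+ subsets, and Itgb1 stays between 3.11 and 4.06.

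Itga8 showed the largest decrease of all tested genes of the set between EC-SP and EC-MP and between the outer subsets. It encodes the alpha 8 chain, which with beta 1 binds RGD proteins such as nephronectin. Its values were -5.45, -5.70 and -3.51 in EC-SP, where only 1 of 3 arrays was well above background, and 0.56, 1.07 and 0.62 in EC-MP. In the subsets it was at -2.36, -2.34 and -1.53 in CD157+CD200+, 0.091, 0.20 and 0.61 in CD157-CD200+ and 2.44, 1.76 and 2.81 in CD157-CD200- cells. The groups did not overlap, and the middle subset again lay between the others. Itga8 was lower in EC-SP than in EC-MP by a fitted difference of -5.64 ± 0.52 (-6.01, -6.76 and -4.13 within slides 1 to 3). It entered that test through EC-MP alone, where it is high, so its call there is a description. With 2 of 3 EC-SP arrays not well above background, the size of that difference is not measured, and after normexp background correction it was -2.60. Itga8 was 21.4-fold lower in CD157+CD200+ than in CD157-CD200- cells (-4.42 ± 0.32, adjusted p = 1.2e-05; -3.06 after normexp correction). Its steps were -2.04 ± 0.32 for CD200 (adjusted p = 0.0023) and -2.38 ± 0.32 for CD157 (adjusted p = 0.0084; -1.36 after normexp correction), the latter not called without CD157+CD200+ replicate 1 (-2.24, adjusted p = 0.05 rounded). All 10 sinusoidal markers were lower in 3 of these contrasts, and 3 of the 10 (Oit3, Fcgr2b and Clec4g) in the step for CD157. Itga8 is also known from stellate cells. Of 8 tested genes of the stellate cell and fibroblast list, 2 were lower and 1 higher in EC-SP (Lrat and Reln, Rgs5) and 2 lower and 3 higher in CD157+CD200+ than in CD157-CD200- cells (Lrat and Dcn, Rgs5, Pdgfrb and Col3a1). Lrat and Reln were well above background on no EC-SP array. They entered the test of EC-SP against EC-MP through EC-MP alone, so their calls there are descriptions. The summed signal of that list was 8.09 to 13.7 in EC-SP and 2.47 to 3.80 in EC-MP arrays. It was 16.8 to 25.5 in CD157+CD200+, 14.8 to 26.6 in CD157-CD200+ and 4.14 to 4.75 in CD157-CD200- arrays. Rgs5 rose in both contrasts where Lrat fell, so the sum does not follow each gene of the list and is no measure of stellate cells alone. Hand2 was well above background on no array.

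The promoter of Itga8 is shown beside that of Itga3 because the genes moved in opposite directions. It lies at chr2:12301945-12302194 on the minus strand (GRCm38.p6), and the 250 bases before the start site held none of the 5 motifs, so no letters are in capitals.
Itga8: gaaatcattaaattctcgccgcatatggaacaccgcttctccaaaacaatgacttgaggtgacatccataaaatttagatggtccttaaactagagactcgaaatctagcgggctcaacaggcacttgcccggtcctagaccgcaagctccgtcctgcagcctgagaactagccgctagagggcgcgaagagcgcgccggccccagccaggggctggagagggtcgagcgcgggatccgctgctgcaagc

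The other RGD-binding chains differed less. Itga5, encoding the fibronectin receptor's alpha 5 chain, was at 0.96, 0.71 and 1.31 in EC-SP and 0.035, -0.31 and 0.37 in EC-MP, without overlap. It was 1.95-fold higher in EC-SP (0.96 ± 0.27, adjusted p = 0.038), a call that was lost, at adjusted p of 0.052 to 0.12 and differences of 0.79 to 1.103, when any 1 of 5 of the 6 arrays was left out (all but EC-MP replicate 3), without a filter on dim probes (adjusted p = 0.11) and on the authors' series table (0.80, adjusted p = 0.076). Subset values were 0.32, 0.79 and -0.29 in CD157+CD200+, 0.10, 0.55 and -0.35 in CD157-CD200+ and -0.25, -0.15 and -0.47 in CD157-CD200- cells, and all 3 ranges overlap. CD157+CD200+ minus CD157-CD200- was 0.56 ± 0.31 (adjusted p = 0.29, 0.036 with the replicate block). Itgb6, the beta chain of an integrin best known from epithelia, was at -1.77, -2.72 and -3.17 in EC-SP and well above background on 0 of 3 EC-MP arrays. It entered the test through EC-SP alone, where it is high, so its call is a description. On the processed signals its level was 5.11-fold higher in EC-SP (fitted difference 2.35 ± 0.37), but after normexp correction the difference was 0.62 log2 units. With no EC-MP array well above background, the size of that difference is not measured. In the subsets Itgb6 was well above background on 1 of 9 arrays. The part of cholangiocytes in the Itgb6 value was not tested.

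Itgav, the alpha V chain that pairs with several beta chains, ranged from -1.43 to -0.35 over the 15 arrays and was called nowhere. Its largest difference was 0.46 ± 0.25 (EC-SP minus EC-MP, adjusted p = 0.26). Itgb3, the partner of alpha V and of the platelet chain alpha IIb, gave results that depended on the probe. Its brighter probe was at 2.08, 1.02 and 2.33 in CD157+CD200+, 2.24, 1.53 and 2.14 in CD157-CD200+ and 2.43, 1.81 and 2.37 in CD157-CD200- cells, and was called in no comparison. It was at 2.64, 2.59 and 2.20 in EC-SP and 2.88, 2.66 and 2.62 in EC-MP. Its second probe averaged 2.27 ± 0.42, 2.26 ± 0.35 and 3.38 ± 0.15 in the 3 subsets in the same order, lower by 1.12 ± 0.26 (adjusted p = 0.017) and 1.13 ± 0.26 (adjusted p = 0.02) in the CD200+ subsets than in CD157-CD200- cells when all probes were tested singly. The 2 Itgb3 probes thus differed in whether they were called. Itga2b, the platelet alpha IIb chain, lay between -3.84 and -1.08 and was not called, and Itgb5 was called in no comparison, with subset means of -2.23 ± 0.10, -2.47 ± 0.11 and -2.72 ± 0.39.

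Itga9 encodes the alpha 9 chain, which binds VCAM1, tenascin and osteopontin and is known from lymphatic valves. It was high where CD200 was absent: 2.81, 2.84 and 3.31 in CD157-CD200- cells, against 0.35, 0.32 and 0.93 in CD157+CD200+ and -0.089, -0.11 and 0.58 in CD157-CD200+ cells, whose ranges overlap each other. In the other sort it was at 1.08, 0.78 and 1.14 in EC-SP and 2.39, 2.23 and 1.54 in EC-MP. Itga9 was 5.46-fold lower in CD157+CD200+ cells (-2.45 ± 0.27, adjusted p = 1.7e-04) and 7.23-fold lower in CD157-CD200+ cells (-2.85 ± 0.27, adjusted p = 8.3e-05) than in CD157-CD200- cells. The difference between the CD200+ subsets was 0.41 ± 0.27 (adjusted p = 0.85). Itga9 was 2.07-fold lower in EC-SP than in EC-MP (-1.05 ± 0.27, adjusted p = 0.031; -1.31, -1.45 and -0.40 within slides 1 to 3), and that call was lost, at differences of -1.12 to -0.88 and adjusted p of 0.056 to 0.11, when any array but EC-MP replicate 3 was left out, and without a filter on dim probes (adjusted p = 0.094). Of 6 lymphatic markers with a probe, 5 were lower in EC-SP and 3 of 4 tested were lower in CD157+CD200+ than in CD157-CD200- cells. Pdpn and Reln were well above background on no EC-SP array and entered that test through EC-MP alone. A call of either there is a description. Lyve1 and Flt4 are also among the sinusoidal markers. Sums of the lymphatic markers were 2.82 to 3.27 in EC-SP, 22.3 to 26.2 in EC-MP, 2.92 to 3.31 in CD157+CD200+, 3.33 to 3.49 in CD157-CD200+ and 39.2 to 55.0 in CD157-CD200- arrays, and Reln was well above background on no subset array.

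Itga1, encoding the collagen receptor chain alpha 1, fell in the same direction as Itga8. It was at 0.57, 0.50 and 0.67 in EC-SP and 2.01, 2.14 and 1.59 in EC-MP, 2.52-fold lower in EC-SP (-1.33 ± 0.23, adjusted p = 0.0049). It was at 1.48, 1.67 and 1.66 in CD157+CD200+, 2.08, 2.44 and 2.05 in CD157-CD200+ and 2.52, 2.67 and 2.35 in CD157-CD200- cells, 1.88-fold lower at the CD157+ end (-0.91 ± 0.18, adjusted p = 0.0072). Neither single step was called (-0.58 ± 0.18 for CD157, adjusted p = 0.28; -0.32 ± 0.18 for CD200, adjusted p = 0.36). A second Itga1 probe gave -1.64 ± 0.22 and -0.94 ± 0.19 in the 2 called comparisons.

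The other collagen receptor chain measured, Itga2, moved the opposite way in EC-SP and was dim. It was at -2.61, -3.37 and -3.15 in EC-SP and well above background on 0 of 3 EC-MP arrays, 3.08-fold higher on the processed signals (fitted difference 1.62 ± 0.31). It too entered the test through EC-SP alone, so its call is a description and the size of the difference is not measured. With normexp background correction that difference shrank to 0.41 and was not called, and in a fit of all 5 groups it was not called (adjusted p = 0.074).

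Itgb7, a chain known from gut-homing lymphocytes, where it pairs with alpha 4 or alpha E, moved in opposite directions in the 2 sorts. It was at -0.36, -0.37 and -0.58 in EC-SP and 0.63, 0.50 and 1.22 in EC-MP, 2.33-fold lower in EC-SP (-1.22 ± 0.25, adjusted p = 0.012). It was at 0.69, 0.66 and 0.29 in CD157+CD200+, 1.18, 1.25 and 0.72 in CD157-CD200+ and -0.27, -0.29 and -0.99 in CD157-CD200- cells, so that CD157-CD200- cells were lowest. Itgb7 was 2.95-fold higher in CD157-CD200+ cells (1.56 ± 0.25, adjusted p = 0.0027) and 2.09-fold higher in CD157+CD200+ cells (1.06 ± 0.25, adjusted p = 0.019) than in CD157-CD200- cells. The second of these was not called without CD157+CD200+ replicate 1, CD157+CD200+ replicate 2 or CD157-CD200- replicate 3 (0.82 to 1.00, adjusted p = 0.051 to 0.072). Of 10 lymphocyte and NK cell markers with a probe, 3 were tested in the first sort and 4 in the second; none was called by limma (0 and 2 had an unadjusted p under 0.05 in EC-SP against EC-MP and CD157+CD200+ against CD157-CD200- cells), and Cd3g, Ms4a1, Klrb1c and Ncr1 were well above background on no array of any group.

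None of the other leukocyte chains was called. Itgal, the alpha L chain of LFA-1, was at -0.85, -0.43 and -0.46 in EC-SP, -0.79, -1.11 and -0.32 in EC-MP, 0.039, 0.36 and -0.14 in CD157+CD200+, 0.22, 0.58 and 0.21 in CD157-CD200+ and -0.34, 0.16 and -0.66 in CD157-CD200- cells. Its CD200 step of 0.62 ± 0.24 had an adjusted p of 0.17, and 0.011 with the replicate block. Itgb2, the beta 2 chain of LFA-1 and Mac-1, was at -0.44, -0.48 and -1.45 in EC-SP and 0.029, -0.34 and 0.052 in EC-MP (-0.70 ± 0.31, adjusted p = 0.16). In the subsets it was at 0.016, 0.35 and -0.0074 in CD157+CD200+, -0.031, -0.23 and -0.15 in CD157-CD200+ and -0.75, -0.095 and -0.50 in CD157-CD200- cells. CD157+CD200+ minus CD157-CD200- was 0.56 ± 0.21 (adjusted p = 0.11, 0.045 with the block; 0.74 and 0.039 without CD157-CD200- replicate 2). Itga4, the alpha 4 chain that binds VCAM1, ranged from -5.07 to -2.49 over all arrays, and replicate 2 was the lowest of every group. It entered the subset tests through CD157+CD200+ cells alone. Its CD157+CD200+ minus CD157-CD200- was 0.76 ± 0.50 (adjusted p = 0.41, 0.043 with the block), and its CD200 step was 0.78 ± 0.50 (adjusted p = 0.46, 0.049 with the block).

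Itgam, the alpha M chain of Mac-1, was at 8.74, 8.59 and 8.29 in EC-SP, 8.71, 8.27 and 8.66 in EC-MP, 7.26, 7.40 and 6.76 in CD157+CD200+, 7.33, 7.41 and 6.62 in CD157-CD200+ and 7.41, 7.31 and 6.82 in CD157-CD200- cells on its brightest probe, and its differences lay between -0.059 and 0.019 (adjusted p of 0.96 to 1). Its 2 other probes were called in no comparison either, but they were far dimmer. Their group means were -1.23 to -1.05 and -3.21 to -2.12, so the probes leave the level of Itgam unsettled. Of 8 general leukocyte markers, 1 of 5 tested was higher (Lcp1) and 1 lower (Fcer1g) in EC-SP, and 2 of 7 (Tyrobp and Fcer1g) were lower in CD157+CD200+ than in CD157-CD200- cells. Their part in the leukocyte chains was not tested.

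**Figure D3:**
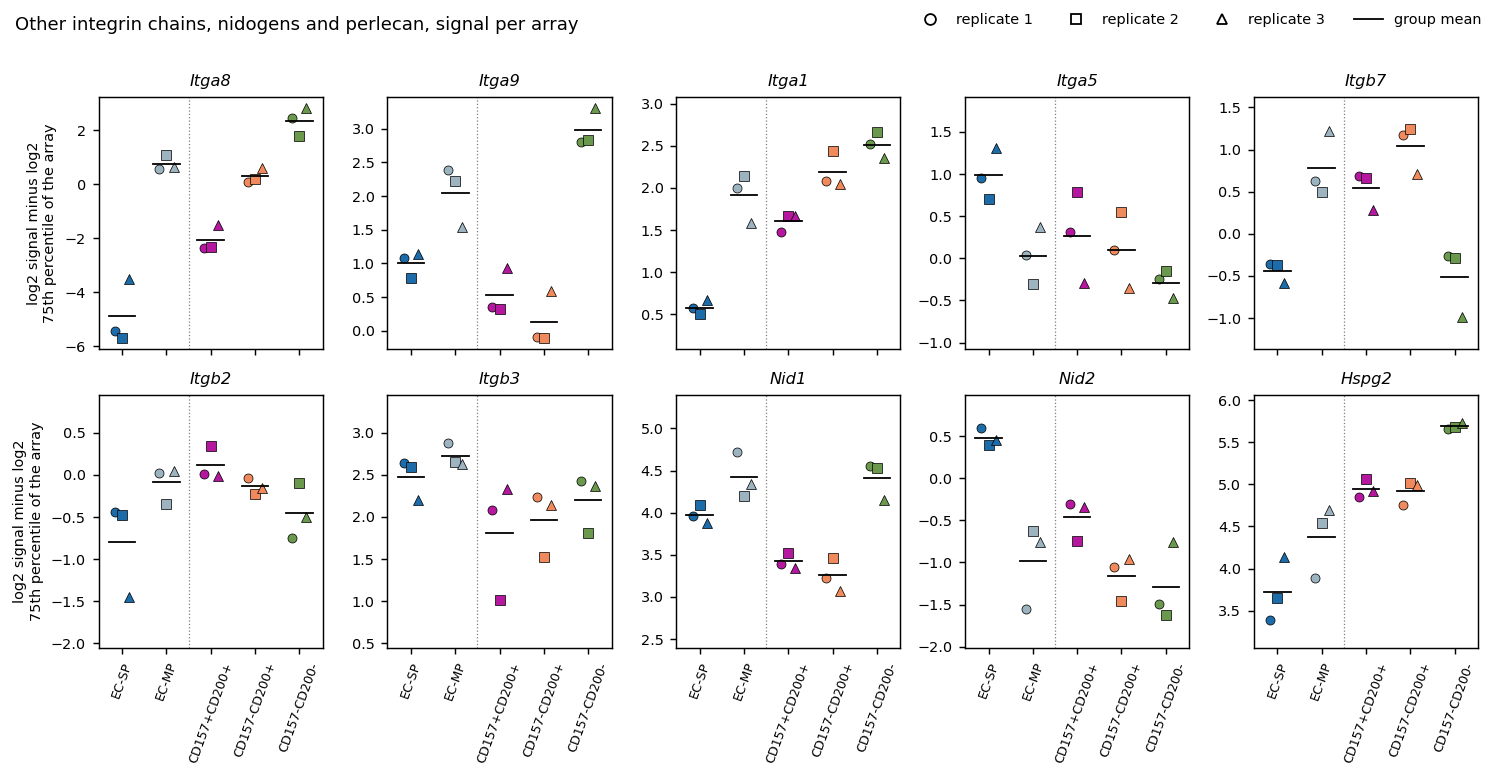
Relative log2 signal (y axis, each panel with its own range) of other integrin chains, the nidogens and perlecan on each of the 15 arrays, by group (x axis), with 1 marker shape per replicate number and a line at the group mean; the dotted line divides the 2 sorts. Among the subsets Itga8, Itga9, Nid1 and Hspg2 are highest and Itgb7 is lowest in CD157-CD200- cells; in the other sort Itga8, Itga9 and Itgb7 are lower in EC-SP than in EC-MP.

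Of the 10 laminin chains, Lama1 and Lamb3 were tested nowhere and Lamc3 in the subsets alone. Higher in CD157+CD200+ than in CD157-CD200- cells were 5 (Lama2, Lama3, Lama5, Lamb1 and Lamc1). Of these 5, 4, all but Lama5, were higher in EC-SP than in EC-MP. Of all features, 8.08% and 9.1% were higher in these contrasts. Lama4 was lower in CD157-CD200+ than in CD157-CD200- cells. Trimers of alpha 4 or alpha 5 with beta 1 and gamma 1 are the laminins best known from the endothelial basement membrane.

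Lamb1, the beta 1 chain, showed the largest increases of the laminin chains. Its values were 1.65, 1.70 and 2.49 in EC-SP and -1.60, -2.40 and -1.15 in EC-MP. In the subsets it was at 1.47, 1.45 and 1.80 in CD157+CD200+, -1.36, -2.21 and -0.86 in CD157-CD200+ and -2.91, -2.65 and -2.61 in CD157-CD200- cells. It was high in EC-SP and in CD157+CD200+ cells and lower in the other groups of the same sort, with no overlap between compared groups. Lamb1 was 12.6-fold higher in EC-SP than in EC-MP (3.66 ± 0.36, adjusted p = 3.1e-04; 3.25, 4.09 and 3.64 within slides 1 to 3; 2.69 after normexp correction) and 19.6-fold higher in CD157+CD200+ than in CD157-CD200- cells (4.30 ± 0.31, adjusted p = 1.1e-05; 2.54 after normexp correction). It was 8.30-fold higher in CD157+CD200+ than in CD157-CD200+ cells (3.05 ± 0.31, adjusted p = 0.0022; 2.08 after normexp correction). The CD200 step was 1.24 ± 0.31 (adjusted p = 0.028), and it was not called after normexp background correction (0.46), after quantile normalization (1.14), without a filter on dim probes, or when any 1 of 5 arrays was left out (the 3 of CD157-CD200- cells and CD157-CD200+ replicates 1 and 3; 0.93 to 1.30, adjusted p = 0.056 to 0.099).

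The Lamb1 promoter is shown because this gene separated the CD157+ from the CD157- cells among those carrying CD200. It lies at chr12:31265043-31265292 on the plus strand (GRCm38.p6), and its only match, to the KLF motif, is in capitals.
Lamb1: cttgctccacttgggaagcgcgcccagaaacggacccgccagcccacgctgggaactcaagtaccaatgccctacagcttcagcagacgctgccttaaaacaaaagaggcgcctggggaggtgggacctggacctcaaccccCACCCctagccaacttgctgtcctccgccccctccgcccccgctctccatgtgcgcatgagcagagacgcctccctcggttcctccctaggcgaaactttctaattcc

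Lama3, the alpha 3 chain known from the laminins of epithelia, was at 2.40, 2.70 and 2.57 in EC-SP and 0.53, 1.26 and 0.36 in EC-MP, 3.58-fold higher in EC-SP (1.84 ± 0.28, adjusted p = 0.0025). It was at 1.71, 1.67 and 1.83 in CD157+CD200+, 0.65, 1.01 and 0.81 in CD157-CD200+ and 0.27, 0.40 and 0.90 in CD157-CD200- cells, 2.32-fold higher at the CD157+ end (1.22 ± 0.21, adjusted p = 0.0028). The CD157 step of 0.91 ± 0.21 had an adjusted p of 0.09, and 0.036 with the replicate block. The 2 lower subsets overlapped each other. A second Lama3 probe was also called in both contrasts of the extremes (2.40 ± 0.28 and 1.497 ± 0.28). Lamb3, the usual beta partner of Lama3 in epithelial laminin, had a signal well above background on 5 of 15 arrays and was not tested.

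Lama2, the alpha 2 chain of muscle and nerve laminins, was at -0.34, 0.025 and 0.49 in EC-SP and -1.40, -1.41 and -1.41 in EC-MP (2.76-fold higher in EC-SP, 1.47 ± 0.26, adjusted p = 0.0052). It was at -0.066, -0.44 and 0.016 in CD157+CD200+, -0.67, -0.36 and -0.43 in CD157-CD200+ and -1.45, -1.16 and -1.62 in CD157-CD200- cells. It was 2.37-fold higher in CD157+CD200+ than in CD157-CD200- cells (1.25 ± 0.20, adjusted p = 0.0022), and its CD200 step was 0.92 ± 0.20 (adjusted p = 0.014); after normexp correction these were 0.745 and 0.55. That step was not called when CD157-CD200- replicate 1 or 3 or CD157-CD200+ replicate 2 or 3 was left out (0.82 to 0.91, adjusted p = 0.051 to 0.061). A second Lama2 probe, tested in the subsets alone, gave 2.06 ± 0.40 (adjusted p = 0.0068) between the outer subsets and 1.21 ± 0.40 (adjusted p = 0.094) in the CD200 step.

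Lama5, the alpha 5 chain, was at 2.67, 2.95 and 4.35 in EC-SP and 1.35, 2.33 and 2.71 in EC-MP, which overlap. Its difference of 1.20 ± 0.48 had an adjusted p of 0.13, and 0.025 with the replicate block (1.33, 0.62 and 1.65 within slides 1 to 3). Lama5 was at 3.43, 3.58 and 2.91 in CD157+CD200+, 3.24, 3.42 and 2.94 in CD157-CD200+ and 2.43, 2.19 and 2.11 in CD157-CD200- cells, with both CD200+ subsets above CD157-CD200- cells. CD157+CD200+ cells were 2.09-fold higher (1.06 ± 0.22, adjusted p = 0.01), a call lost in a fit of all 5 groups (adjusted p = 0.10), and CD157-CD200+ cells were 1.94-fold higher (0.96 ± 0.22, adjusted p = 0.021). The latter call was lost without CD157-CD200+ replicate 1 or 2 or CD157-CD200- replicate 2 or 3 (0.85 to 0.94, adjusted p = 0.055 to 0.085), without a filter on dim probes (adjusted p = 0.054) and in the fit of all groups (adjusted p = 0.18).

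Lama4, the alpha 4 chain, was lowest in the middle subset. It was at 3.75, 3.86 and 3.68 in CD157+CD200+, 3.18, 3.22 and 3.24 in CD157-CD200+ and 4.21, 4.41 and 4.08 in CD157-CD200- cells, with no overlap among the 3 groups. CD157-CD200+ cells were 2.02-fold lower than CD157-CD200- cells (-1.02 ± 0.16, adjusted p = 0.0024). The other subset differences were called with the replicate block alone: 0.55 ± 0.16 for CD157+CD200+ minus CD157-CD200+ (adjusted p = 0.25, 0.05 as rounded with the block) and -0.47 ± 0.16 for CD157+CD200+ minus CD157-CD200- (adjusted p = 0.087, 0.017 with the block). In the other sort Lama4 was at 3.53, 3.46 and 3.91 in EC-SP and 3.26, 2.89 and 3.12 in EC-MP (0.54 ± 0.23, adjusted p = 0.15).

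Lamc1, the gamma 1 chain of most laminins, was at 3.996, 3.91 and 3.80 in CD157+CD200+, 3.69, 3.79 and 3.70 in CD157-CD200+ and 3.07, 2.85 and 2.76 in CD157-CD200- cells. It was 2.01-fold higher in CD157+CD200+ cells (1.01 ± 0.16, adjusted p = 0.002) and 1.79-fold higher in CD157-CD200+ cells (0.84 ± 0.16, adjusted p = 0.0074) than in CD157-CD200- cells. In the other sort it was at 3.05, 2.93 and 3.45 in EC-SP and 2.16, 2.49 and 2.20 in EC-MP. That difference of 0.86 ± 0.24 (adjusted p = 0.037) was not called when any 1 of the 6 arrays was left out (0.70 to 0.96, adjusted p = 0.056 to 0.12), after quantile normalization (0.74, adjusted p = 0.065), on the authors' series table (0.70, adjusted p = 0.083) or without a filter on dim probes (adjusted p = 0.11).

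Lamb2, the beta 2 chain known from kidney and synapse, had its highest mean in the middle subset. It was at 1.72, 1.92 and 2.23 in CD157+CD200+, 2.09, 2.34 and 2.49 in CD157-CD200+ and 1.33, 1.08 and 1.48 in CD157-CD200- cells. Its difference between the overlapping CD200+ subsets, CD157+CD200+ minus CD157-CD200+, was -0.35 ± 0.20 (adjusted p = 0.78). Its CD200 step was 1.01 ± 0.20 (2.01-fold, adjusted p = 0.0095), and CD157+CD200+ minus CD157-CD200- was 0.66 ± 0.20 (adjusted p = 0.059; 0.0096 with the replicate block, 0.025 after normexp correction and 0.035 after quantile normalization). It was at 1.55, 1.48 and 2.02 in EC-SP and 0.85, 1.12 and 1.74 in EC-MP (0.45 ± 0.29, adjusted p = 0.35). Lamc3, the gamma 3 chain, was well above background on all CD157+CD200+ arrays (-3.57, -3.42 and -3.61), on 1 CD157-CD200+ array and on no other, and was not called (CD157+CD200+ minus CD157-CD200- 1.20 ± 0.44, adjusted p = 0.11, and 0.014 without CD157-CD200+ replicate 2). It entered the subset tests through CD157+CD200+ cells alone, so these p-values only describe it. Lama1, the alpha 1 chain of embryonic laminin, was well above background on no array.

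Nid1 and perlecan were lower in both CD200+ subsets than in CD157-CD200- cells, and Nid2 was higher in EC-SP than in EC-MP. Nid1 was at 3.40, 3.53 and 3.34 in CD157+CD200+, 3.23, 3.47 and 3.07 in CD157-CD200+ and 4.55, 4.53 and 4.15 in CD157-CD200- cells. It was 1.98-fold lower in CD157+CD200+ (-0.99 ± 0.19, adjusted p = 0.0055) and 2.22-fold lower in CD157-CD200+ cells (-1.15 ± 0.19, adjusted p = 0.0027) than in CD157-CD200- cells. All 3 Nid1 probes were called in both comparisons, with differences of -1.22 to -0.99 and -1.20 to -1.15. In EC-SP and EC-MP it was at 3.96, 4.09 and 3.88 and at 4.72, 4.20 and 4.35 (-0.44 ± 0.23, adjusted p = 0.23).

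Nid2, the second nidogen, was at 0.60, 0.40 and 0.45 in EC-SP and -1.56, -0.63 and -0.75 in EC-MP, 2.76-fold higher in EC-SP (1.46 ± 0.28, adjusted p = 0.0081). Nid2 was at -0.30, -0.74 and -0.34 in CD157+CD200+, -1.05, -1.46 and -0.96 in CD157-CD200+ and -1.49, -1.63 and -0.75 in CD157-CD200- cells. CD157+CD200+ minus CD157-CD200- was 0.83 ± 0.26 (adjusted p = 0.067, 0.01 with the replicate block, and 1.097 with 0.014 without CD157-CD200- replicate 3).

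Hspg2, encoding the proteoglycan perlecan, was at 4.85, 5.06 and 4.93 in CD157+CD200+, 4.75, 5.01 and 4.99 in CD157-CD200+ and 5.65, 5.68 and 5.73 in CD157-CD200- cells. CD157+CD200+ cells differed from CD157-CD200- cells by -0.75 ± 0.16 (adjusted p = 0.011) and CD157-CD200+ cells by -0.77 ± 0.16 (adjusted p = 0.011), with no overlap. The first was not called without CD157+CD200+ replicate 1 (-0.70, adjusted p = 0.0503) and the second without CD157-CD200+ replicate 1 (-0.69, adjusted p = 0.059). In EC-SP and EC-MP it was at 3.39, 3.65 and 4.13 and at 3.88, 4.54 and 4.70 (-0.65 ± 0.30, adjusted p = 0.18, 0.049 with the replicate block). A second Hspg2 probe was not called in any comparison, with -0.57 ± 0.28 and -0.69 ± 0.28 in the 2 subset contrasts and 0.082 ± 0.32 in EC-SP minus EC-MP.

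The subset sort holds 2 steps, CD157-CD200- to CD157-CD200+ and from there to CD157+CD200+. Of the 29 tested genes, Itga8, Itgb4 and Lamb1 were called in both steps, 11 in the CD200 step alone, 0 in the CD157 step alone, and 15 in neither; with the replicate block Itga6, Lama3 and Lama4 were also called in the CD157 step. The 2 steps share the CD157-CD200+ arrays and so are not independent of each other. The CD157 step had 2032 features at an unadjusted p under 0.05 and 248 called, against 5211 and 2808 for the CD200 step. The called features were 1.04% and 11.8% of the 23733 tested, so at most 1.04% of all features were called in both steps. Shares of all features for each pattern over the 2 steps were not counted. An effect called in 1 step and not in the other is not shown to differ between them.

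**Figure D4:**
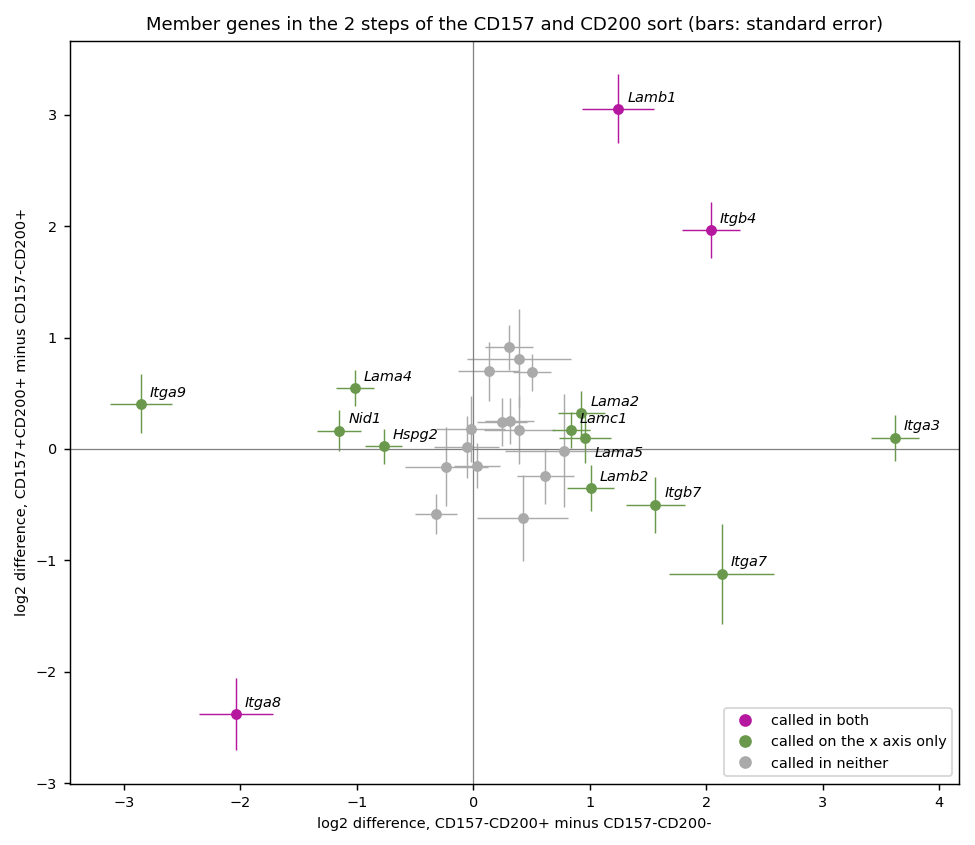
Log2 difference of 29 tested genes in the CD200 step (x axis, CD157-CD200+ minus CD157-CD200-) and the CD157 step (y axis, CD157+CD200+ minus CD157-CD200+), with bars for the standard error and colours for the steps in which a gene was called. Itgb4, Lamb1 and Itga8 lie away from 0 on both axes, while Itga3 and Itga9 lie far out on the x axis and at 0.10 and 0.41 on the y axis.

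Whether a gene's difference was of another size in the 2 sorts was tested over all 15 arrays as EC-SP minus EC-MP less CD157+CD200+ minus CD157-CD200-. Of 31 genes tested, 3 were called, against 5.03% of all features, and 4 with the replicate block, against 12.7%. Itga3 gave -2.67 ± 0.32 (adjusted p = 1.6e-04; -1.196 after normexp correction), its rise being smaller in EC-SP than in CD157+CD200+ cells. Itgb7 gave -2.28 ± 0.36 (adjusted p = 0.0017), its differences having opposite signs. Lama4 gave 1.01 ± 0.26 (adjusted p = 0.035), with 0.54 in one sort and -0.47 in the other; it was not called when any 1 of 10 of the 15 arrays was left out (0.88 to 1.06, adjusted p = 0.0504 to 0.079), on the authors' series table (0.86, adjusted p = 0.088) or without a filter on dim probes (adjusted p = 0.074). Itga9 gave 1.40 ± 0.39 (adjusted p = 0.058, 0.011 with the block) and Itgb2 -1.27 ± 0.38 (adjusted p = 0.074; 0.048 after normexp correction and 0.047 on the authors' series table). Itgb4 (-0.63 ± 0.37), Lamb1 (-0.64 ± 0.51) and Itga6 (-0.01 ± 0.27) had adjusted p of 0.46, 0.66 and 1. The sorts were hybridised on different slides and read on different scanners, so a comparison of levels between them was not made; a shift common to both groups of a sort cancels in the difference.

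Across both sorts, 7 genes were higher at both the EC-SP and the CD157+CD200+ end (Itga3, Itga6, Itgb4, Lama2, Lama3, Lamb1 and Lamc1), 3 were lower at both (Itga1, Itga8 and Itga9), and Itgb7 was called in opposite directions. Of the 25 genes tested in both, these are 28.0% and 12.0%, where 5.22% of all named genes tested in both were higher and 3.74% lower at both. Only Itga8, Itgb4 and Lamb1 were called in all 4 comparisons, and the Itga8 call in EC-SP against EC-MP is a description. The share of all features called in all 4 was not counted, and 1.04% were called in CD157+CD200+ against CD157-CD200+ cells. Of the 36 genes with a probe, 21 of 31 tested were called at least once (29.7% of all named genes tested), 10 were tested and never called, and 5 (Itga11, Itgax, Itgb8, Lama1 and Lamb3) were tested nowhere. These counts rest on the brightest probe of each gene. Itgb3 is among the 10, but its second probe was lower in both CD200+ subsets than in CD157-CD200- cells. Itga11 was well above background on no array, and Itgax and Itgb8 on 1 array each.

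Genes that act with these receptors were taken from lists by role, and the genes named are those with the lowest adjusted p of each list. Among 31 genes of integrin activation and focal adhesions, 29 were tested; 7 were higher and 2 lower in CD157+CD200+ than in CD157-CD200- cells, and 2 were higher and 2 lower in EC-SP than in EC-MP. These are 31.0% and 13.8% of the list, against 15.2% and 16.5% of all features, so the share in EC-SP against EC-MP lay near the background. Lims2, a partner of integrin-linked kinase, was higher in CD157+CD200+ cells by 2.43 ± 0.20 (adjusted p = 2.7e-05) and Kank1, a talin-binding protein, by 2.37 ± 0.22 (adjusted p = 6.7e-05). In EC-SP, Kank1 was higher by 1.76 ± 0.27 (adjusted p = 0.0028), as was the small GTPase gene Rap1b, by 0.86 ± 0.22 (adjusted p = 0.031). Tns3, a tensin that binds beta integrin tails, was lower in both contrasts, with differences of -3.21 ± 0.19 and -2.25 ± 0.30. In the CD200 step 7 were higher and 1 lower, and in the CD157 step 0 of 29 were called by limma (5 had an unadjusted p under 0.05, the lowest being that of Ptk2b, 0.85 ± 0.20, adjusted p = 0.11). The list's median difference was 0.052 between the outer subsets and 0.018 in EC-SP minus EC-MP, beside 0.0053 and -0.0052 for all features.

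Among 23 other basement membrane genes, 18 were tested; 3 were higher and 5 lower in CD157+CD200+ than in CD157-CD200- cells, and 4 were higher and 3 lower in EC-SP than in EC-MP (44.4% and 38.9% of those tested). Of all features, 15.2% and 16.5% were called. The list's median difference was -0.0031 and 0.047 in these contrasts. In the CD200 step 3 were higher and 6 lower, with a median of -0.35. Col18a1, the source of endostatin, was higher in CD157+CD200+ cells (2.91 ± 0.25, adjusted p = 4.1e-05) and in EC-SP (2.82 ± 0.34, adjusted p = 8.1e-04). Col15a1, its closest relative, was higher in EC-SP (5.12 ± 0.24, adjusted p = 1.7e-05), where Egflam, the dystroglycan ligand pikachurin, was lower (-2.57 ± 0.25, adjusted p = 3.1e-04). Npnt, nephronectin, the ligand of alpha 8 beta 1, was higher in CD157+CD200+ than in CD157-CD200- cells, where Itga8 was lower, by 2.42 ± 0.23 (adjusted p = 6.6e-05). Smoc1, a calcium-binding basement membrane protein, was higher there by 3.82 ± 0.21 (adjusted p = 2.1e-06) and was the only gene of the list called in the CD157 step (1.56 ± 0.21, adjusted p = 0.0083). With the replicate block Sparc was also called in that step. Col4a1 and Col4a2, the main collagen IV chains, which nidogens and perlecan link to laminin, are named after their values were seen. Both were lower in CD157+CD200+ than in CD157-CD200- cells, as Nid1 and Hspg2 were (-0.80 ± 0.21 and -1.03 ± 0.21; adjusted p = 0.027 and 0.0085).

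Of 20 RGD and other matrix ligands, 16 were tested in the subsets and 17 in EC-SP and EC-MP. In CD157+CD200+ against CD157-CD200- cells 8 were higher and 2 lower, with a list median of 1.11, and in EC-SP against EC-MP 5 were higher and 1 lower, with a median of 0.49. The called genes were 62.5% and 35.3% of those tested, against 15.2% and 16.5% of all features. Fbn1, fibrillin 1, was higher in both contrasts, by 3.34 ± 0.21 (adjusted p = 5.6e-06) and 1.45 ± 0.20 (adjusted p = 0.0017). Ccn2, a matricellular growth factor partner, was higher in CD157+CD200+ cells by 2.86 ± 0.21 (adjusted p = 1.4e-05). Vwf, higher there by 7.86 ± 0.27 (adjusted p = 1.9e-07), is also one of the large-vessel markers, and Spp1, higher in EC-SP by 2.65 ± 0.31 (adjusted p = 7.2e-04), one of the cholangiocyte markers. Thbs1, thrombospondin 1, was higher in EC-SP by 4.19 ± 0.30 (adjusted p = 6.3e-05) and was the only ligand called in the CD157 step (4.36 ± 0.38, adjusted p = 0.001). Fn1, fibronectin, the ligand of alpha 5 beta 1, is named after its values were seen and was higher in both contrasts (2.07 ± 0.27, adjusted p = 5.8e-04, and 1.85 ± 0.30, adjusted p = 0.0034).

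Of 18 laminin receptors outside the integrin family and integrin-linked tetraspanins, 5 were higher and 3 lower in CD157+CD200+ than in CD157-CD200- cells, and 4 of 17 tested were higher and 2 lower in EC-SP than in EC-MP (44.4% and 35.3% of those tested, with medians of 0.046 and 0.06). Of all features, 15.2% and 16.5% were called. Bcam, the Lutheran receptor for laminin alpha 5, was higher in CD157+CD200+ cells by 3.21 ± 0.22 (adjusted p = 7.9e-06), and Sdc1, syndecan 1, by 4.65 ± 0.20 (adjusted p = 4.8e-07). Dmd, dystrophin, which ties dystroglycan to the cytoskeleton, was lower there (-2.11 ± 0.17, adjusted p = 2.0e-05). In EC-SP, Utrn, utrophin, a relative of dystrophin, was higher by 1.45 ± 0.27 (adjusted p = 0.0076) and Sdc4, syndecan 4, by 1.07 ± 0.23 (adjusted p = 0.013), while Sdc3 was lower (-1.12 ± 0.24, adjusted p = 0.014).

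Of 10 cell-surface ligands of leukocyte integrins, 5 were higher and 0 lower in CD157+CD200+ than in CD157-CD200- cells, with a median of 0.80, and 3 were higher and 2 lower in EC-SP than in EC-MP, with a median of 0.29, so that 5 of 10 were called in each. Of all features, 15.2% and 16.5% were called. Jam3, a junctional adhesion molecule that binds Mac-1, was higher in both contrasts (2.12 ± 0.21, adjusted p = 9.9e-05, and 2.22 ± 0.21, adjusted p = 2.7e-04) and in the CD157 step (1.58 ± 0.21, adjusted p = 0.0084). Vcam1, the ligand of alpha 4 and alpha 9 integrins, was higher in CD157+CD200+ cells by 1.36 ± 0.20 (adjusted p = 0.0012), and Jam2, another junctional adhesion molecule, by 1.51 ± 0.27 (adjusted p = 0.004). Thy1 was lower in EC-SP (-4.07 ± 0.26, adjusted p = 3.7e-05) and Cdh1, E-cadherin, which is also one of the cholangiocyte markers, higher (2.28 ± 0.28, adjusted p = 9.6e-04). With the replicate block, the 5 lists had 16 of 29, 11 of 18, 13 of 16, 10 of 18 and 7 of 10 genes called between the outer subsets. They are in the order above, beside 29.2% of all features. In EC-SP against EC-MP the blocked counts were 5 of 29, 6 of 18, 8 of 17, 6 of 17 and 6 of 10, beside 21.9% of all features. These lists were described by counts and medians and not tested as sets.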

How the data were processed

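RNA of 15 samples had been amplified and hybridised to 1-colour Agilent arrays. Per the file headers, the authors' scanner files hold Cy3 signal intensity from Feature Extraction 10.10.1.1 (EC-SP and EC-MP) and 11.5.1.1 (the CD157 and CD200 subsets), with processed signal already background-subtracted and no normalization between arrays. The deposited series table held the same signal intensity multiplied by 1 constant per array, uncentred and on a linear scale, with column medians of 218.3 to 335.4 units; it served as an alternative.

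From these files, log2 values relative to each array's 75th percentile of processed signal (157 to 297 units) were computed. Control spots and 110 to 213 spots per array marked as outliers were left out, no spot was saturated, and spots of a probe were averaged. Probes were named by accession through 4 revisions of the array annotation and RefSeq (28059 of 55681 probes, 21173 genes), and the brightest probe over all arrays stood for its gene. limma 3.58.1 (lmFit and eBayes, R 4.3.3; tables in Python 3.11.15) was fitted to 24009 features in the 6 EC-SP and EC-MP arrays, to 23733 in the 9 subset arrays and to 25101 in all 15 arrays, with Benjamini-Hochberg adjustment over all features of a comparison. Fits were tested on simulated data.

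The genes and the lists were chosen with earlier results of these data known. Genes called in at least 1 comparison, or with a group mean above the 75th percentile of probes, are given array by array. Excepted are Itga2, Itga7 and Itgb6, whose values are left out for some groups. Each of those groups had at most 1 array well above background for the gene. Of each list of other genes up to 3 called genes with the lowest adjusted p per comparison are named. The replicate number of the labels marks 1 slide and 1 scan. Deviations from the group means of samples with the same number correlated at 0.27 to 0.33 (3 pairs of EC-SP and EC-MP) and 0.27 to 0.63 (9 pairs of subsets), and those with different numbers at -0.20 to -0.077 and -0.49 to 0.034, so the numbers pair the samples and blocked values are given where they change a call. Alternatives covered background correction, normalization, filters on dim probes, the choice of probe, the samples in the fit, the block and leaving out each array. Col4a1, Col4a2 and Fn1 were named outside that rule.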

Additional observations from a re-analysis of the deposited data

Results flagged for a closer look

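For 3 genes the difference between EC-SP and EC-MP was of another size or sign than that between CD157+CD200+ and CD157-CD200- cells, by a test of the difference itself in limma over all 15 arrays. Itga3 was higher at the first-named end of both contrasts, and its rise was smaller in EC-SP (-2.67 ± 0.32, adjusted p = 1.6e-04; -1.196 after normexp background correction). Itgb7 was lower in EC-SP and higher in CD157+CD200+ cells (-2.28 ± 0.36, adjusted p = 0.0017). Lama4 differed by 1.01 ± 0.26 (adjusted p = 0.035), a call lost when any 1 of 10 of the 15 arrays was left out. The sorts were run on different slides and scanners, whose part in these differences was not tested.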

How the results depend on the processing

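No tested gene changed sign in a called result under any alternative. Over the alternatives other than leaving out an array, the number of genes called was 12 to 17 in EC-SP against EC-MP, 13 to 20 in CD157+CD200+ against CD157-CD200-, 3 to 6 in CD157+CD200+ against CD157-CD200+, 12 to 17 in CD157-CD200+ against CD157-CD200- cells, 14 to 19 for any difference among the subsets and 2 to 4 for the difference between the sorts. Leaving out 1 array gave 11 to 14, 12 to 16, 2 to 3, 11 to 14, 14 to 17 and 2 to 4 calls in the same order. Called under every alternative in which they were tested were 10 of 15, 11 of 14, 2 of 3, 9 of 14 genes in the 4 comparisons and 2 of 3 for the difference between the sorts; 2 of the 10, Itga8 and Itgb6, were not tested where every array had to be well above background. Called differences that moved by over 1.5 times did so after normexp correction, which made them smaller, and those values stand beside the results. With the replicate block the count between the CD200+ subsets was 6 in place of 3; no other count moved by over 1.5 times.

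The authors' series table moved the median of all features in EC-SP minus EC-MP to -0.17, and its calls over all features split into 1650 higher and 2492 lower in place of 2186 and 1783; those of the genes described here split into 9 and 4 in place of 11 and 4. The files used hold no mean signal, so normexp correction used the median signal. Quantile normalization of the test of any subset difference, and the alternatives for single genes' differences between the sorts, were chosen after seeing the data. Slide and scan could not be separated from the replicate number. Probes near background, such as those of Itga2, Itga7, Itgb6 and Lamc3, limit the size of a difference that can be read.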
